A study of Mus musculus with 2 samples.

Results

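The mature absorptive enterocytes of mouse small intestinal organoids were taken as the cells richest in 4 transcripts of the absorptive lineage. A barcode was kept as a cell when it held at least 500 genes and 1000 unique molecular identifiers (UMIs, each counting 1 captured RNA molecule) and at most 20% of its UMIs came from mitochondrial genes. Levels per cell are UMIs per 10000 UMIs of that cell (CP10K). Members were selected on their measured values: the sum of Apoa1, Apoa4, Fabp1 and S100g had to reach 20 CP10K and Chgb, a granin of hormone cells, had to stay under 5 CP10K. Of 4066 kept cells, 465 met the rule, which is 11.4% (95% Clopper-Pearson interval, 10.5 to 12.5%).

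Organoids are epithelial structures grown in gel from gut stem cells, so they lack the blood supply, immune cells, microbes and luminal food of the intestine. The labels give 2 libraries, 1 from control organoids and 1 from organoids treated with melatonin. For each, cells of 3 independent organoid lines were pooled on culture day 3, which leaves no record of which line a cell came from. The mouse strain, age and melatonin dose are not given in the sources used here. The deposited files of the 2 libraries were the same in 3 of 3 kinds of file (barcodes, genes and counts), and no label ties either barcode suffix to a treatment. Both library names in the labels begin with SET2, and what these names mark is not explained there. Everything below therefore rests on 1 matrix, the control organoids cannot be told apart from the melatonin-treated ones, and values are given for barcodes ending in 1 (set 1) and in 2 (set 2), names that refer here to the suffix alone and not to the library names. No difference between them can be read as more or less melatonin, no replicate exists and no test was run.

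Absorptive enterocytes are the most numerous cells of the small intestinal villus. They arise from crypt stem cells through dividing progenitors and switch on digestive and transport genes while they move up the villus, until they are shed at the tip. Their apical microvilli form a brush border that carries enzymes which finish the digestion of sugars and peptides, beside transporters that take up the products. Inside the cell, fatty acids and monoglycerides are rebuilt into triglycerides and packed with apolipoproteins into chylomicrons for export to the lymph.

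The matrix held 31053 genes and 21806 barcodes, 12364 of them in set 1 and 9442 in set 2, and 29 barcode sequences occurred with both suffixes. Of the members, 2 carried such a shared sequence. Kept cells numbered 2300 in set 1 and 1766 in set 2, with a median of 29222 UMIs per cell. Members had a median of 32841 UMIs and 4776 genes, and 12.2% of a member's UMIs were mitochondrial at the median, against 9.72% in the range of cells just below the rule.

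Cells that met the rule made up a larger share of set 2 than of set 1. In set 1, 216 of 2300 kept cells were members, or 9.39% (8.23 to 10.7%). In set 2, 249 of 1766 kept cells were members, or 14.1% (12.5 to 15.8%). The intervals did not overlap, but they cover counting error only. They did overlap under other limits: with at most 10% mitochondrial UMIs the shares were 5.05% (3.95 to 6.35%) and 6.69% (5.24 to 8.39%), and with a sum of 10 CP10K or more 15.4% (13.9 to 16.9%) and 18.3% (16.6 to 20.2%). Beyond their number, the cells of set 2 also lay further up the sum of the 4 rule genes, whose median was 206 CP10K in set 2 and 74.6 CP10K in set 1. Over all members the sum ran from 20.1 to 618 CP10K, with a median of 128.

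On a log scale of the 4-gene sum the members did not form a single peak (plot of the 4-gene sum by set). The reaches counted here double in width and the last is open. Below the rule, 455 cells lay at 5 to 10 CP10K and 213 at 10 to 20. The lowest reach of the rule, 20 to 40 CP10K, continued this fall with 112 members, and the reach from 80 to 160 held only 60. Above 160 CP10K lay 216 members, of which 165 had a sum of 250 or more. In set 1, 75 of the 216 members reached 160, or 34.7% (28.4 to 41.5%). In set 2, 141 of the 249 did so, or 56.6% (50.2 to 62.9%). Just inside the limit, 52 members had a sum of 20 to 25 CP10K, and just outside it 88 cells had 15 to 20. The cells nearest to the limit had sums of 20.1 CP10K inside and 19.96 CP10K outside. Sucrase-isomaltase (Sis) was at 246 CPM (UMIs summed over the cells and scaled to a total of 1000000) in the 52 cells inside and at 228 CPM in the 88 outside. Guca2b was at 44.9 and 15.4 CPM, Cyp3a11 at 44.1 and 59.2 CPM and Mki67 at 124 and 198 CPM on the 2 sides, and the median depths of these cells were 20405.5 and 7254 UMIs.

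**Figure D1:**
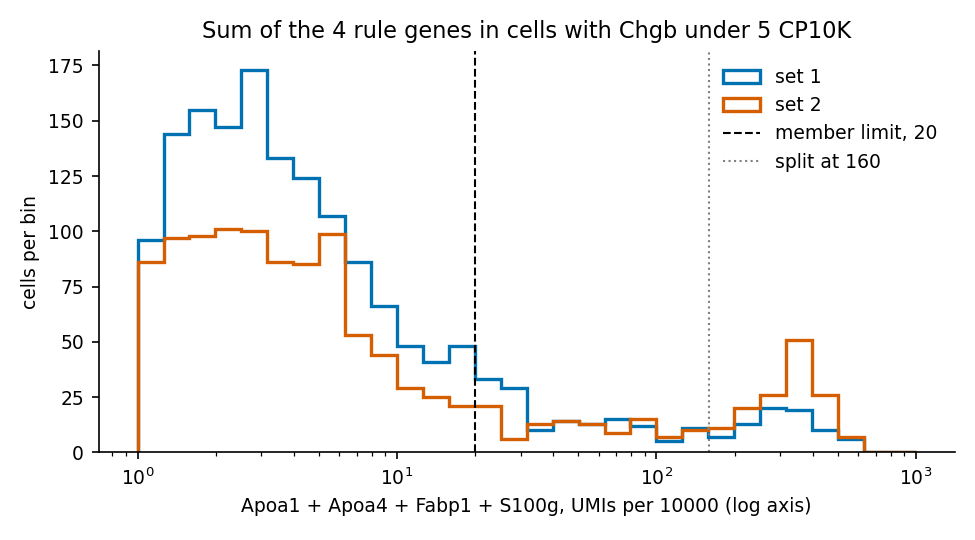
Number of cells (vertical axis) by the summed level of Apoa1, Apoa4, Fabp1 and S100g in UMIs per 10000 (horizontal log axis) for kept cells with Chgb under 5 CP10K, set 1 in blue and set 2 in orange. The dashed line is the limit of 20 and the dotted line the later split at 160, above which lie 75 cells of set 1 and 141 of set 2; 282 cells of set 1 and 269 of set 2 with a sum under 1 are not drawn.

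Fabp1 (ENSMUSG00000054422), which binds fatty acids in the cytosol, brought most members in. It gave the most UMIs of the 4 genes in 409 of 465 members (88.0%), and alone reached 20 CP10K in 404 (86.9%). Its level per member ran from 0 to 542 CP10K with a median of 86.1, and 230 members would have been lost without it. Apoa4 (ENSMUSG00000032080), an apolipoprotein of chylomicrons, had a median of 8.19 CP10K and a highest value of 330.1, and 34 members depended on it. S100g (ENSMUSG00000040808), the calcium buffer calbindin of the absorptive cell, ran from 0 to 344 CP10K with a median of 4.69. Apoa1 (ENSMUSG00000032083), the main protein of high-density lipoprotein, was at 0 in 159 members, and only 6 members depended on it. All 4 genes were at 1 CP10K or more in 196 members (42.2%). The rule thus gathered cells with much Fabp1 of which fewer than 50% held all 4 transcripts at that level. In the 216 members of 160 CP10K and over, the 4 genes together took 3.38% of all UMIs, against 0.0855% in the cells just below the rule.

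Of the 6 markers given for these cells, Guca2b and Cyp3a11 were not part of the rule, and both were far higher in members than in cells just below it. For the comparison, UMIs were summed over the members and over the 668 kept cells with a 4-gene sum of 5 to under 20 CP10K and Chgb under 5 (the lower range), and a log2 ratio of the CPM values was taken after adding 1 CPM. Ratios are log2 values, followed by their 95% interval for counting error. A gene counts as higher or lower when it differed by at least 2-fold with 95% Poisson intervals apart. Since the groups were chosen on 4 of the measured genes and enterocyte genes vary together, the contrast follows from the rule: it describes the cells, and nothing is read from its counts.

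Guca2b (ENSMUSG00000032978), the gut peptide uroguanylin that drives salt and water secretion, was at 578 (566 to 591) CPM in members and 10.2 CPM in the lower range. Its level per member ran from 0 to 60.6 CP10K with a median of 0.690. Cyp3a11 (ENSMUSG00000056035), an enzyme that oxidises drugs and bile acids, was at 1583 (1563 to 1604) CPM against 29.5 CPM, with a median per member of 6.02 CP10K and a highest value of 222. Both markers came with the label and were chosen with these data known, so their levels describe the cells and are no independent check of the label. Shares at 2000 UMIs are expected values after thinning, with cells under 2000 UMIs left out: 39 of 465 members (30 of them in set 1), 98 of 668 cells of the lower range and 153 of 757 cells with Chgb at 5 CP10K or more. The share of members with a Guca2b UMI was 37.9%, against 2.49% in the lower range and 2.68% in the Chgb cells. For Cyp3a11 the shares were 58.2%, 6.31% and 2.64%. Without thinning, 61.7% of members (median 32841 UMIs) and 12.2% of the Chgb cells (median 13393 UMIs) held a Guca2b UMI. Both markers belonged mostly to the cells of highest sum: at 160 CP10K and over, 66.0% of thinned cells held Guca2b and 92.1% held Cyp3a11, and at 20 to 40 CP10K, where 26 of 112 cells were left out, 4.10% and 8.42%. At the low end of the rule these shares lay close to those of the lower range, so the label of those cells rests mainly on Fabp1. A list of proliferation genes summed to 14.3 CP10K at 20 to 40 and 16.6 at 40 to 80. It was at 18.0 in the lower range and 2.51 at 160 and over. For a list of crypt stem genes the levels were 6.88 and 5.99, against 8.87 and 2.12. The share of members thus includes cells that still held these genes near the level of the lower range.

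Over all genes, 781 of 12817 with at least 10 UMIs in both groups together were higher in members (6.09%) and 625 were lower (4.88%), with a median log2 ratio of −0.11. The gene lists below were chosen with results of these data known, and each is given by its counts and its median (the plot of gene lists shows every gene). The limit on mitochondrial UMIs bears on their size: with at most 10%, 138 members remained, 279 genes were higher and 76 lower, and the medians were 0.94 for fat uptake and chylomicron assembly, 0.58 for microvillus structure, 1.10 for sugar, peptide and amino acid transport, 0.61 for mineral and ion transport, 1.45 for retinoid handling, 1.24 for drug metabolism, 0.32 for fatty acid oxidation and −0.50 for crypt stem genes.

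**Figure D2:**
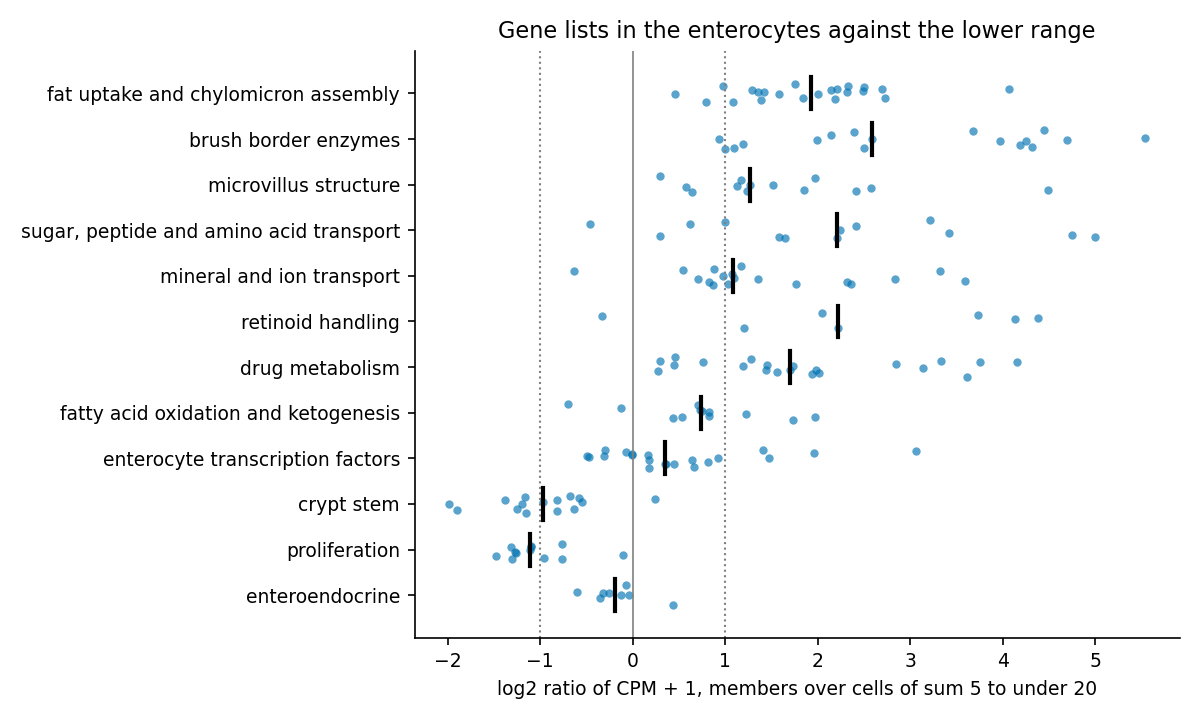
Log2 ratio of CPM + 1 in the 465 members over the 668 cells of the lower range (horizontal axis), by gene list (rows). Each blue point is a gene having at least 10 UMIs in both groups together. Black bars are list medians and dotted lines mark a 2-fold difference. The medians lie between 1.08 and 2.58 for the 7 lists of absorption and drug metabolism and at −0.97 and −1.11 for crypt stem and proliferation genes.

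Of the genes of fat uptake and chylomicron assembly, 19 of 22 were higher in members and none lower, with a median log2 ratio of 1.92 (1.72 to 2.13) against −0.11 over all genes. Fabp2, the intestinal fatty acid binding protein, was at 3605 against 641 CPM. Apoc3, which slows the clearance of triglyceride particles, was at 700.0 against 40.9 CPM, a log2 ratio of 4.07 (3.96 to 4.18). Along the route into the particle, the acyl-CoA synthetase Acsl5 was at 526 against 91.8 CPM. Mogat2, which joins a fatty acid to monoglyceride, was at 102 against 14.5 CPM. The transfer protein Mttp, which loads lipid onto apolipoprotein B, was at 532 against 106 CPM, and Apob itself at 365 against 79.6 CPM. These 6 genes span the route from binding to packing, and each was past 2-fold. Sterol exporters were higher as well: Abcg5 was at 134 against 26.0 CPM, its partner Abcg8 at 133 against 29.3 CPM, and Abca1, which loads high-density lipoprotein, at 17.3 against 1.82 CPM. The 3 genes under 2-fold were the lipid droplet coats Plin2 (0.45, 0.35 to 0.56) and Plin3 (0.98, 0.89 to 1.07), and Pla2g12b (0.79, 0.60 to 0.98). Cd36, a fatty acid receptor, was higher in ratio but at only 2.57 CPM.

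Of the brush border enzymes, 15 of 17 measured genes were higher in members and none lower, with a median of 2.58 (2.53 to 2.75); the enteropeptidase gene Tmprss15 had too few UMIs. Lct, the lactase of milk sugar, was at 70.1 against 0.528 CPM, a log2 ratio of 5.54 (5.14 to 5.85). With at most 10% mitochondrial UMIs the list's median was 1.25 (0.92 to 1.88) and the ratio of Lct 1.25 (0.43 to 1.88), so Lct no longer stood apart from its list, and with a pseudocount of 10 CPM its ratio was 2.93. Sis, which splits sucrose and maltose, was at 1101 against 183 CPM. The peptidases ranged widely. Mep1b, a meprin subunit, had a ratio of 4.69 (4.31 to 5.05) and Enpep, glutamyl aminopeptidase, one of 4.32 (3.92 to 4.67), while Mep1a, the other meprin subunit, lay just under 2-fold after adding 1 CPM, at 17.3 against 8.15 CPM. Alpi, the intestinal alkaline phosphatase that detoxifies bacterial lipopolysaccharide, was at 107 against 4.69 CPM. Anpep and Dpp4, both peptidases of the microvillus, differed less, with ratios of 2.15 (2.06 to 2.23) and 1.10 (0.92 to 1.28).

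The microvillus structure genes were also higher, but by less: 10 of 13 passed the fold, none in the other direction, with a median of 1.27 (1.17 to 1.39). Krt20, a keratin of differentiated villus cells, had the largest ratio, 4.49 (4.17 to 4.81), at 86.1 against 2.87 CPM. The cadherins Cdhr5 (2.57, 2.47 to 2.68) and Cdhr2 (2.42, 2.29 to 2.55), whose links between tips hold microvilli together, came next. Vil1, an actin bundler of the microvillus core, was at 227 against 104 CPM. Ezr, Ush1c and Myo7b stayed under 2-fold, and Myo7b, the motor at the microvillus tip, was at 35.9 against 29.0 CPM.

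Of 13 transporters of sugars, peptides and amino acids, 10 were higher and none lower, with a median of 2.21 (2.03 to 2.40). Slc2a5, the fructose carrier, was at 149 against 3.69 CPM. Slc2a2, the glucose exit carrier of the basal side, was at 178 against 5.69 CPM. Slc5a1, the sodium-driven glucose pump, was already present in the lower range and was at 389 against 72.3 CPM. The di- and tripeptide carrier Slc15a1 was scarce, at 11.6 against 0.176 CPM. Neutral amino acid uptake by Slc6a19 had a ratio of 2.24 (2.04 to 2.44) and the basal exchanger subunit Slc7a7 one of 1.58 (1.40 to 1.75). Slc3a2, Slc1a1 and Slc36a1 were under 2-fold, and the glutamate carrier Slc1a1 was at 2.84 against 4.28 CPM.

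Mineral and ion transport was more uneven, with 11 of 18 genes higher, none lower and a median of 1.08 (0.87 to 1.36). For iron, the uptake carrier Slc11a2 was at 211 against 16.6 CPM, the exporter Slc40a1 at 32.3 against 5.69 CPM and the storage subunit Fth1 at 19390.1 against 3781 CPM. Of the Slc40a1 UMIs of members, 38.9% came from the 3 cells that held most. Fth1 alone took 1.94% of all UMIs of members. For calcium, the channel Trpv6 had 0 UMIs in both groups, which allows up to 0.208 CPM in members, while the basal calcium pump Atp2b1 was at 227 against 100.4 CPM. The sodium-proton exchanger Slc9a3 had a ratio of 3.32 (2.98 to 3.67). The chloride channel Cftr, a gene of crypt secretion, ran the other way at 33.4 against 52.6 CPM, a ratio of −0.64 (−0.80 to −0.48).

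Retinoid handling genes were higher in 6 of 7 measured genes, with a median of 2.22 (1.96 to 2.56). Rbp2, which carries retinol inside the enterocyte, was at 3109.9 against 177 CPM, and its level per member had a median of 18.5 CP10K. Bco1, the enzyme that cleaves beta-carotene, was at 19.3 against 3.34 CPM. Aldh1a1, which makes retinoic acid, was at 208 against 14.7 CPM. Lrat, the enzyme that stores retinol as ester, was at 6.52 against 8.44 CPM, and Isx, a homeobox gene that restrains carotene uptake, had 0 UMIs in both groups.

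Drug metabolism was strongly represented, with 16 of 21 genes higher, none lower and a median of 1.70 (1.65 to 1.73). Beside Cyp3a11, Cyp2b10 was at 1424 against 78.7 CPM, Cyp4f14 at 406 against 29.1 CPM and Cyp3a25 at 389 against 30.7 CPM. The glutathione transferases, which couple glutathione to reactive molecules, were divided. Gsta1 was at 5469 against 1425 CPM and Gstm1 at 2355 against 723 CPM, whereas Gsta3 (0.30, 0.21 to 0.38) and Gsta4 (0.46, 0.43 to 0.49) were under 2-fold. The efflux pump Abcc2 had a ratio of 2.01 (1.93 to 2.10) and Abcg2 one of 0.45 (0.30 to 0.60). Of the receptors that sense drugs, Nr1i3 was at 52.0 against 12.4 CPM, Nr1i2 at 21.6 against 12.4 CPM and Ahr at 12.5 against 10.2 CPM. Reads of close relatives in the Cyp2c, Cyp3a, Gsta, Gstm, Ces2, Reg3, Defa, Lyz and Hspa1 families can be split between copies by the counting, so values of single members of these families are uncertain.

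Of 12 genes of fatty acid oxidation, 3 were higher, Ehhadh and Pdk4 among them, and none lower, with a median of 0.74 (0.64 to 0.82). Over all genes, 6.09% were higher and 4.88% lower. Poisson intervals were apart for 10 of the 12 in the higher direction and for 1 in the lower, most of them under 2-fold. The peroxisomal enzyme Ehhadh had a ratio of 1.74 (1.54 to 1.94), and Pdk4, a kinase that restrains glucose oxidation, was at 9.16 against 3.34 CPM.

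Most transcription factors of the lineage were within 2-fold. Of 21 genes, 4 were higher and none lower, where 6.09% of all genes were higher and 4.88% lower. The median was 0.35 (0.11 to 0.55). Poisson intervals were apart for 12 of the 21 in the higher direction and for 3 in the lower, whatever the size of the difference. Creb3l3, a membrane-bound factor of lipid metabolism genes, had a ratio of 3.07 (2.91 to 3.23), Maf one of 1.96 (1.71 to 2.22), the bile acid receptor Nr1h4 one of 1.48 (1.24 to 1.71) and Hnf4g one of 1.41 (1.24 to 1.59). Its relative Hnf4a had a ratio of 0.17 (0.06 to 0.28). Cdx2 was at 76.7 against 80.9 CPM and Gata4 at 39.8 against 39.9 CPM. The other 17 factors, these 3 among them, were within 2-fold between members and the lower range.

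Promoters of enterocyte genes were searched for the short motifs of such factors. The 4 shown belong to a rule gene (Fabp1), a marker outside the rule (Cyp3a11), a brush border enzyme (Lct) and the retinol carrier Rbp2. They are RefSeq sequences of build GRCm38.p6, written 5′ to 3′ from 250 bases before to 50 bases after the gene's start. Capitals mark the motifs, searched on both strands. The HNF4 motif was spelled CAAAGTCCA or CAAAGGTCA. The CDX2 motif was spelled CNATAAA. The GATA motif was spelled AGATAA. Rbp2 (chr9:98490287-98490586, plus strand) holds HNF4, GATA and CDX2 letters that begin at −58, −43 and −16 from the start. Cyp3a11 (chr5:145879805-145880104, minus strand) holds HNF4 letters at −109. Lct (chr1:128328269-128328568, minus strand) holds GATA letters at −101 and −90. Fabp1 (chr6:71199629-71199928, plus strand) holds CDX2 letters at −227, −133 and −89.
Rbp2: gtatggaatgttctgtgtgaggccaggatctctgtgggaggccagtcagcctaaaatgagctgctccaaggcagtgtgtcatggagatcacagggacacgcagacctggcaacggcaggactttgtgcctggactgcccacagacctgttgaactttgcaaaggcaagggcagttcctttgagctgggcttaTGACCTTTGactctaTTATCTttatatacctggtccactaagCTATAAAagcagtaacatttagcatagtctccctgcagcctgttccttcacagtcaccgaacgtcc
Cyp3a11: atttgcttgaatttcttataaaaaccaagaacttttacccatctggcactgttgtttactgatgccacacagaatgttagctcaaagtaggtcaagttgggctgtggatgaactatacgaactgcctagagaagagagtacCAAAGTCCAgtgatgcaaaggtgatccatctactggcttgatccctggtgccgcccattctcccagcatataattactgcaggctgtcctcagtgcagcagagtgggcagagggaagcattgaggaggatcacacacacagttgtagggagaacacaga
Lct: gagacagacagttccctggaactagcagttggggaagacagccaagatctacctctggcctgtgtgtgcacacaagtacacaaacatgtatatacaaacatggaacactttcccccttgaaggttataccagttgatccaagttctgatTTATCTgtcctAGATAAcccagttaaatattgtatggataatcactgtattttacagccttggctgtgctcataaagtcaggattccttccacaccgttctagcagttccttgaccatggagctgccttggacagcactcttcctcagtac
Fabp1: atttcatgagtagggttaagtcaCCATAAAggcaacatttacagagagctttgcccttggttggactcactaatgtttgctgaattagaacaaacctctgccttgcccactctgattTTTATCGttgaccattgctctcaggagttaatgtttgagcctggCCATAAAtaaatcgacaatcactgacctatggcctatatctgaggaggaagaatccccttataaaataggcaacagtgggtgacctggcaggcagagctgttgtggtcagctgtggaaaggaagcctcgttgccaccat

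Across the rule genes, the markers, the brush border, microvillus, transport, retinoid and drug metabolism lists, 73 of 80 genes had a promoter in the table. HNF4 letters were in 8 of these 73 promoters (11%, with an interval of 4.85 to 20.5%), among them Alpi, Treh, Bco1 and Cyp3a25, against 0.944% of 27025 mouse promoters of the same length. CDX2 letters were in 13 (17.8%, against 11.3%), GATA letters in 10 (13.7%, against 11.4%) and those of HNF1 in 1 (1.37%, against 0.437%). Of 12 promoters of proliferation genes, none held HNF4, CDX2 or HNF1 letters and 1 (Top2a) held GATA letters. A match is a run of letters in the sequence and says nothing of binding in these cells, and the lists were chosen with their expression known.

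Genes that mark a place along the gut were found for both ends, but at unlike levels. The duodenal and jejunal list summed to 34.0 CP10K over members, and the ileal and colonic list to 0.651. Of the duodenal and jejunal list, 3 of 6 were higher in members, namely Lct, Rbp2 and Bco1. These were already counted with the brush border and retinoid genes. Of the ileal and colonic list, 3 of 6 measured genes were higher. Slc10a2, the ileal bile acid carrier, was at 9.92 against 1.82 CPM, Slc51b, a bile acid exporter subunit, at 24.1 against 1.11 CPM and Osr2 at 12.1 against 2.58 CPM. Fabp6, the ileal bile acid binding protein, and Car1, a colonic carbonic anhydrase, had 0 UMIs in the 465 members, which allows up to 0.208 CPM. Of genes placed along the villus, those of its middle were higher in 5 of 5 (median 2.41, 2.32 to 2.50), those of its bottom in 3 of 5 (1.16, 1.11 to 1.22) and those of its tip in 3 of 10 (0.63, 0.56 to 0.89). Under the alternatives these medians ran from 1.10 to 2.63, from 0.55 to 1.40 and from 0.55 to 0.93. At the tip, the 3 were Creb3l3, Npc1l1 and Ada, and Ada rested on few cells: 3 cells held 79.6% of its UMIs. Nt5e, which makes adenosine at the villus tip, was at 1.11 CPM in members.

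Mucosal defence genes went both ways, with 4 of 8 measured genes higher and 1 lower. Pigr, which carries antibody into the lumen, was at 1223 against 543 CPM. Dmbt1, a secreted scavenger protein that binds bacteria, was lower at 65.5 against 182 CPM, a ratio of −1.46 (−1.57 to −1.36). Reg1, a secreted lectin-like protein, was at 198 against 39.4 CPM but had UMIs in only 24.3% of members. The other 2, Duoxa2 and Nos2, drew 91.7% of their UMIs each from 1 member of set 2.

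Crypt genes lay on the other side. Of 15 crypt stem genes, 7 were lower in members and none higher, with a median of −0.97 (−1.34 to −0.63). The stem cell receptor Lgr5 was at 26.3 against 101 CPM and the secreted matrix protein Smoc2 at 40.4 against 162 CPM. Of 12 proliferation genes, 8 were lower and none higher, with a median of −1.11 (−1.27 to −0.995). That median was −0.24 (−0.456 to −0.0881) with at most 10% mitochondrial UMIs, −0.77 in set 1 alone and −2.71 without Fabp1 in the rule. The dividing-cell marker Mki67 was at 63.9 against 159 CPM and Ube2c, which drives the exit from mitosis, at 198 against 555 CPM. At 2000 UMIs per cell the expected shares of members with an Lgr5 and an Mki67 UMI were 5.44% and 9.65% (34.0% and 37% unthinned), against 18.1% and 24.0% in the lower range and 2.30% and 3.53% in the Chgb cells. The members' shares came from the low bands: they were 13.0% and 17.6% at 20 to 40 CP10K, and at 160 and over 1.02% and 1.96%, below those of the Chgb cells.

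By the rule for named genes, the 10 highest ratios included 4 genes not yet described that have a known role. G6pc, the last enzyme of glucose release, was at 81.7 CPM in members and 0.645 in the lower range, a ratio of 5.65 (5.26 to 5.97). Leap2, a secreted peptide that blocks the ghrelin receptor, was at 627 against 14.2 CPM. Npl, which breaks down sialic acid, was at 102 against 1.70 CPM, and the lectin-like gene Clec2h at 82.9 against 0.938 CPM. The largest ratio of all belonged to 2010106E10Rik, 6.14 (5.78 to 6.48), and the sulfotransferase gene Sult6b2 (5.07, 4.68 to 5.41) was the last of the 10. Under the alternatives 2010106E10Rik ran from 4.02 to 6.75 and Sult6b2 from 2.46 to 5.95. Among the 10 lowest, Spink4 (−2.10, −2.24 to −1.96) and Agr2 (−2.09, −2.31 to −1.88) are goblet cell genes, and 3 cells of the lower range held 57.1% and 45.8% of their UMIs there. Itln1, a secreted lectin of Paneth and goblet cells, was at 201 against 706 CPM. The others were Lgr5, Smoc2, Ly6e, Cnn3, Pla2g1b, Apobec3 and the kinetochore gene Nuf2, with ratios of −1.70 to −2.00. With at most 10% mitochondrial UMIs, Spink4 (−0.37), Apobec3 (−0.79), Cnn3 (−0.88) and Itln1 (−0.92) were under 2-fold, G6pc was at 2.55 and Npl at 2.85; Pla2g1b was at −0.99 with a sum of 10 CP10K or more.

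Markers of other cell types were looked at as well. Of 8 enteroendocrine markers, none was higher or lower. Their summed level was 0.738 CP10K in members against 637 CP10K in cells with Chgb at 5 or more. Members and the lower range were both chosen with Chgb under 5 CP10K. These levels thus follow largely from the selection and are no separate check for hormone cells. Of 5 goblet markers measured, 4 were lower (Tff3, Spink4, Fcgbp and Agr2) and the mucin Muc2 was at 0.624 CPM. The goblet list summed to 2.18 CP10K over members and 6.30 over the lower range, but its median per cell was 0.637 and 0.793 CP10K, and 3 cells held 97.1% of the Tff3 UMIs of set 2 in the lower range. Of 4 Paneth markers measured, the lysozyme gene Lyz1 was higher at 67.4 against 13.7 CPM and Itln1 lower, while Defa24 had a ratio of −0.07 (−0.45 to 0.32) and Defa17 one of −0.05 (−0.52 to 0.45). Of the listed genes with too few UMIs to be measured, Defa22 and Mmp7 were at 0 UMIs in members. At 2000 UMIs per cell the expected share with a Lyz1 UMI was 9.84% of members, 2.34% of the lower range and 16.4% of the Chgb cells, and it was 1.47% at 20 to 40 CP10K and 16.3% at 160 and over. Tuft, immune and mesenchymal lists summed to 0.00208, 0.00902 and 0.0118 CP10K over all members, with Dclk1, Ptprc, Col1a2 and Col3a1 at 0 UMIs. Of the microfold list, Gp2 was at 0 UMIs and Tnfaip2 was higher at 14.6 against 0.469 CPM. The part of free RNA in these levels was not tested.

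The study's title names YAP and prostaglandin E2. Of 10 measured YAP targets, none was higher and Ankrd1 was lower, with 0 UMIs in members, which allows up to 0.208 CPM, against 2.29 CPM in the lower range. Cyr61, a matrix protein widely used as a YAP readout, was at 23.7 against 27.6 CPM. The lower range itself differed between the sets in this list: 5 of 8 measured targets were higher in its set 2 and none lower, with a median log2 ratio of 1.14 (0.51 to 1.45), where 1.23% of all genes were higher and 0.744% lower. Within members, 1 of 8 was higher in set 2 and 1 lower (0.455% and 1.0% of all genes), with a median of 0.26 (−0.21 to 0.51). Of 7 measured prostaglandin and melatonin genes, Hpgd, the enzyme that inactivates prostaglandin E2, was higher at 19.1 against 8.79 CPM and none was lower. The receptor gene Ptger4 was at 7.91 against 8.32 CPM. The melatonin receptors Mtnr1a and Mtnr1b had 0 UMIs in members, which allows up to 0.208 CPM. Of 7 measured revival-like genes, S100a6 and Areg were higher. Areg, a ligand of the epidermal growth factor receptor, was at 883 against 263 CPM, and S100a6 at 246 against 113 CPM, with 87.4% of its member UMIs in 3 cells. Of 13 immediate early and stress genes, 2 were higher: Ddit3 (1.17, 1.06 to 1.27) and the sulfiredoxin gene Srxn1 (1.73, 1.54 to 1.93).

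Within the members, levels were followed along the 4-gene sum (plot of single genes along the sum). Levels in the bands of 20 to 40, 40 to 80 and 80 to 160 CP10K were set against those at 160 and over, a split chosen after the data were seen. Only genes at 10 CPM or more in the top band that at least doubled from the band of 5 to 10 to the top were used. The top band thus decides which genes enter, and the shares describe those genes and not whole lists. Of the drug metabolism list 17 of 21 genes entered, with a median level of 31.8%, 36.6% and 66.4% of the top in the 3 bands over both sets; in set 1 alone the median at 20 to 40 was 26.5%. The 5 genes of fatty acid oxidation that entered stood at 37.8%, 51.7% and 72.04%, and 6 transcription factors at 42.3%, 43.5% and 66.8%. The fat genes stood at 25.2%, 29.3% and 50.7%. The microvillus genes stood at 27.9%, 37.0% and 55.4%, and the mineral and ion transporters at 28.8%, 35.9% and 58.8%. The retinoid genes stood at 19.8%, 30.6% and 43.0%, and the sugar, peptide and amino acid transporters at 17.7%, 22.4% and 42.5%. The brush border enzymes stood at 8.41%, 11.2% and 35.7%. The bands are set on the rule's own sum and all genes share the same cells and depth, so no order of the lists is read from these shares.

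Single genes made the spread plain. Lct was at 0.384 CPM in the band of 20 to 40, 0.444 at 40 to 80, 11.2 at 80 to 160 and 131 at 160 and over, where 101 of 216 cells held 1 CP10K or more and no cell of the band of 20 to 40 did. Slc2a5 took the values 6.14, 8.44, 28.3 and 274 CPM, and the alcohol dehydrogenase Adh6a 9.60, 10.2, 32.7 and 178 CPM. Each of these 3 was at least 5 times as high at 160 and over as in the band before. Krt20, in contrast, was at 14.2, 48.0, 99.1 and 119 CPM, and Gstm1 at 1204, 1461, 2681 and 2932 CPM. The sets differed in this: from 80 to 160 CP10K to 160 and over, Krt20 went from 59.1 to 90.0 CPM in set 1 and from 128 to 133 CPM in set 2, and Gstm1 from 1357 to 1945 CPM and from 3646 to 3428 CPM. Lgr5 went down in steps, at 64.5, 54.2, 25.9 and 4.79 CPM. Mki67 did not: it was at 114, 153, 83.0 and 14.5 CPM, and Ube2c was at 368, 452, 243 and 51.7 CPM. In the lower range Mki67 was at 159 CPM, so the members of 40 to 80 CP10K were near it, and the low levels were those at 160 and over.

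**Figure D3:**
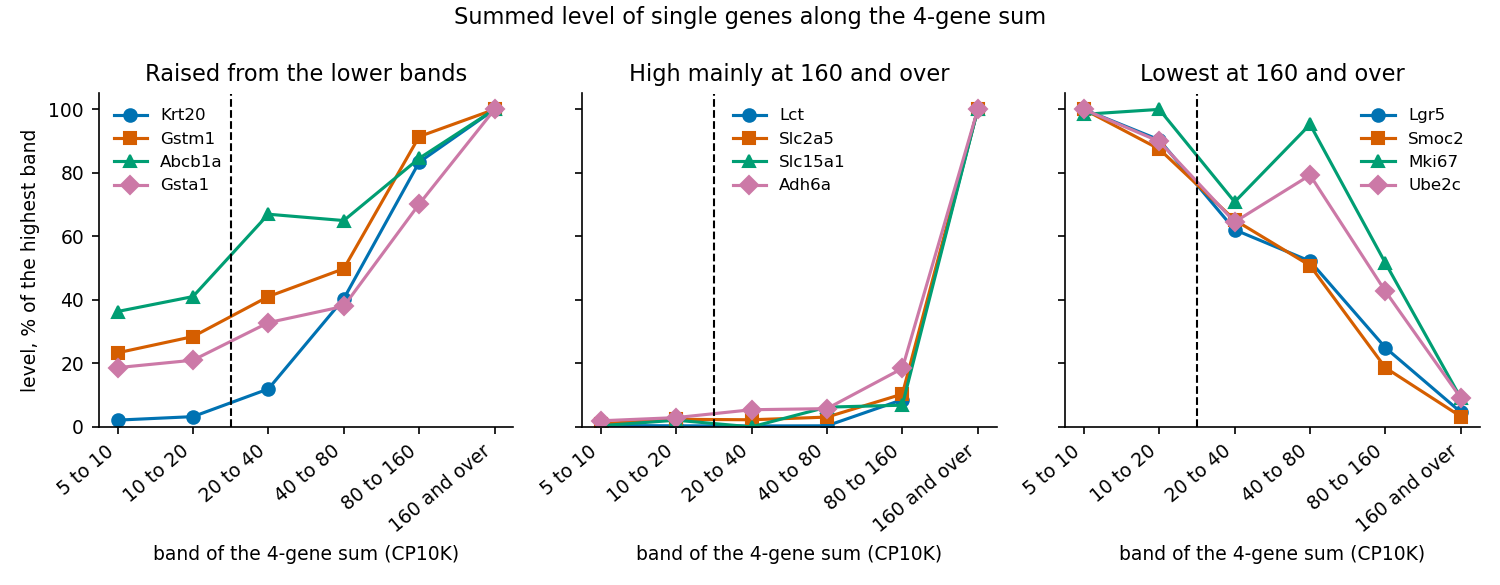
Summed level of 12 genes, as a percentage of each gene's highest band (vertical axis), in bands of the 4-gene sum in CP10K (horizontal axis); the dashed line is the limit of 20 for members, and the genes were chosen after their values were seen. Krt20, Gstm1, Abcb1a and Gsta1 (left, both sets pooled) have most of their top level at 80 to 160, Lct, Slc2a5, Slc15a1 and Adh6a (middle) are high at 160 and over, and Lgr5, Smoc2, Mki67 and Ube2c (right) are lowest there.

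The mitochondrial share moved with the same axis. Its median was 9.76% of UMIs in members of 20 to 40 CP10K, 10.0% at 40 to 80, 11.2% at 80 to 160 and 14.4% at 160 and over. With at most 10% mitochondrial UMIs, 138 of the 465 members remained, and 21 of the 216 at 160 and over. Its part in the profiles along the sum was not tested.

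The members also held a few cells that stood far from the rest in single genes. Among 1176 genes at a mean of 1 CP10K or more, the 10 with the largest variance against counting noise were Gm26917, Gm42418, S100a6, Malat1, Crct1, Tff3, Xist, Fth1, Prap1 and Fabp1. For S100a6, Crct1 and Tff3 the spread came from single cells: 3 cells held 87.4%, 99.7% and 75.7% of their UMIs. A single member of set 2, with a 4-gene sum of 32.2 CP10K, held 2691 of 2860 Crct1 UMIs, and also 33 of 42 for Duox2, 33 of 36 for its maturation factor Duoxa2 and 22 of 24 for the nitric oxide synthase Nos2. Another member of set 2, of sum 22.7, held 1114 of 2216 Tff3 UMIs and 629 of 1426 for Acta1. A member of set 1, of sum 22.1, held 46 of 48 Ly6a UMIs. All 3 lay at the low end of the rule. These genes were picked out after their values were seen, and doublets were not called, so a cell joined to another in the droplet cannot be told apart from a cell that holds both programmes.

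Between the sets, members differed in a small number of genes. Over all genes tested, 53 of 11658 (0.455%) were higher in set 2 and 117 (1.0%) were lower, with a median log2 ratio of −0.01. These counts depended on the settings: they were 15 and 14 with a pseudocount of 10 CPM, 103 and 99 with at most 10% mitochondrial UMIs, 20 and 35 at 10 CPM or more, and 34 and 126 without the 10 members of most S100a6 and Crct1, so that the excess of lower genes was not seen under the first 2. Since the members of set 2 lie further along the 4-gene sum, the same contrast was also taken among cells of 160 CP10K and over, an alternative chosen after the data were seen. There 32 of 10571 genes (0.303%) were higher in set 2 and 134 (1.27%) were lower. Each set is 1 pool of barcodes, so the spread between libraries is unknown.

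At 160 CP10K and over, levels per cell of several absorptive genes were set side by side for the 2 sets (plot of levels per cell by set). Fabp1 gave the most UMIs of the 4 rule genes in 193 of these 216 cells and 65.4% of the sum at the median, so its level there is largely set by the selection. It ran from 43.2 to 539 CP10K with a median of 219 in set 1, and from 14.4 to 542 with a median of 189 in set 2. The medians of Cyp3a11 were 27.4 and 27.0 CP10K, those of Slc5a1 5.69 and 5.70, and those of Guca2b 9.46 and 7.51. Their ranges overlapped almost fully. Of the lists, the fat genes had a median log2 ratio of −0.02 (−0.21 to 0.21) in these cells and 0.23 (0.07 to 0.41) over all members. The brush border enzymes had −0.21 (−0.43 to 0.19) and 0.17 (−0.01 to 0.36), and the transporters 0.15 (−0.19 to 0.47) and 0.30 (0.14 to 0.57). Among cells of like sum the medians of the first 2 lists were thus below 0 and that of the transporters was nearer to 0, with all 3 intervals across 0.

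**Figure D4:**
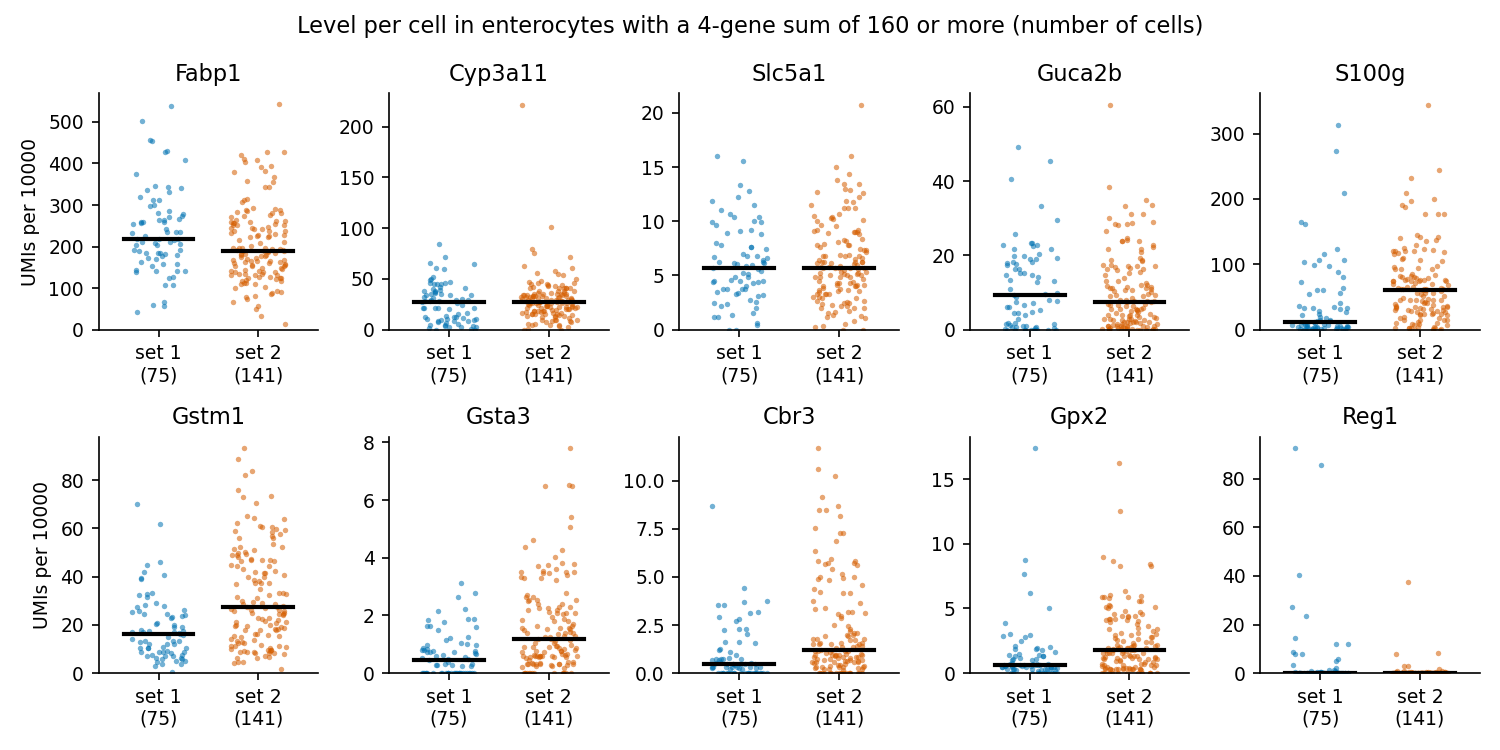
Level per cell in UMIs per 10000 (vertical axes) of 10 genes in the 216 enterocytes with a 4-gene sum of 160 or more, 75 of set 1 (blue) and 141 of set 2 (orange); each point is a cell and black bars are medians. Fabp1 and S100g are genes of the rule that selected the cells; Fabp1, Cyp3a11, Slc5a1 and Guca2b overlap, S100g, Gstm1, Gsta3, Cbr3 and Gpx2 have higher medians in set 2, and Reg1 is at 0 in most cells of both.

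Cbr3, Gsta3 and Srxn1 were higher in set 2 by the 2-fold limit both over all members and among the top cells. S100g, Gstm1 and Anpep passed it over all members and Gpx2 among the top cells. S100g had a median of 11.9 CP10K in the 75 top cells of set 1 and 60.6 in the 141 of set 2, and alone reached 20 CP10K in 41.3% and 81.6% of them. It is a gene of the rule. Its summed level in the top cells was 4363 CPM in set 1 and 6677 CPM in set 2, which is under 2-fold. Its ratio was 1.09 (1.06 to 1.12) over all members, between 0.30 and 2.74 under the alternatives, and 1.46 (1.36 to 1.56) in the lower range. Gstm1 was at 1945 CPM in the top cells of set 1 and 3428 CPM in those of set 2, a ratio of 0.82 (0.77 to 0.86), under 2-fold, and over all members its ratio was 1.16 (1.13 to 1.20). Gstm3, at 1378 and 1843 CPM, Gsta1, at 6863 and 7664 CPM, and Gsta4, at 1229 and 1478 CPM, were also under 2-fold in the top cells. Gsta3 was at 70.9 and 175 CPM, a ratio of 1.29 (1.06 to 1.53) in the top cells and 1.18 (1.03 to 1.32) over all members. Cbr3, a carbonyl reductase, was at 101 and 261 CPM, a ratio of 1.37 (1.17 to 1.56). Gpx2, the gut glutathione peroxidase, had a ratio of 1.21 (1.03 to 1.39), and Srxn1, which restores peroxiredoxins, one of 1.04 (0.74 to 1.35). All 7 genes (S100g, Gstm1, Gsta3, Cbr3, Gpx2, Srxn1 and Anpep) were at higher levels in set 2 in each band of the sum, those below the rule included, so this direction was also seen in cells that were no members. Under 5 CP10K, Gsta3 was at 75.3 CPM in set 1 and 225 CPM in set 2, Gstm1 at 346 and 727 CPM, and Anpep at 35.6 and 90.9 CPM. Under the alternatives over all members, Cbr3 (1.29 to 1.98) and Gsta3 (1.03 to 1.52) stayed past 2-fold, while Gstm1 was at 0.97, Srxn1 at 0.75 and Anpep at 0.45 without Fabp1 in the rule. Srxn1 was also at 0.95 with a pseudocount of 10 CPM and at 0.87 as means over cells, and Anpep at 0.69 in the top cells. The drug metabolism list had a median of 0.27 (0.13 to 0.36) in the top cells and 0.50 (0.35 to 0.52) over all members. Over all members, 2 of 21 passed the 2-fold limit upward in set 2 and none downward (0.455% and 1.0% of all genes). For the lower range, whose cells are no members, 5 of 21 passed it upward and none downward (1.23% and 0.744% of all genes). The list's median there was 0.17 (−0.05 to 0.36).

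Reg1 and Reg3a, secreted lectin-like proteins of the gut epithelium, were the genes furthest in the other direction. Over all members Reg1 was at 425 CPM in set 1 and 46.5 CPM in set 2, a ratio of −3.16 (−3.32 to −3.01), and among the top cells its ratio was −3.18 (−3.37 to −2.99). Reg3a had ratios of −2.09 (−2.35 to −1.83) and −2.55 (−2.84 to −2.27). Both were uneven between cells: 36.0% of the top cells of set 1 and 16.3% of those of set 2 held a Reg1 UMI, and 3 cells held 56.0% and 79.7% of the UMIs of each. Of 13 members at 20 CP10K or more of Reg1, 12 were in set 1. In the lower range Reg1 had a ratio of −2.90 (−3.25 to −2.55). Dmbt1 was also higher in set 1, with a ratio of −1.74 (−1.94 to −1.54) over all members, and so were Fabp5 (−1.28, −1.41 to −1.15), Rgcc (−1.32, −1.51 to −1.13), Arhgdig (−1.12, −1.29 to −0.95) and 2210407C18Rik (−1.58, −1.79 to −1.38), although 3 cells held 76.6% of the set 1 UMIs of the last. In the lower range the ratio was −1.54 (−1.67 to −1.42) for Dmbt1 and −1.07 (−1.20 to −0.94) for Rgcc, so both were also higher in set 1 in cells that were no members. Of these 5, Dmbt1 stayed past 2-fold under the alternatives (−1.87 to −1.30). Rgcc was under it without Fabp1 in the rule (−0.43), Arhgdig in that setting (−0.28) and with at most 10% mitochondrial UMIs (−0.62) and as means over cells (−0.88), Fabp5 with a sum of 10 CP10K or more (−0.97), and 2210407C18Rik there (−0.99) and at 160 and over (−0.94).

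Some ratios between the sets rested on few cells. Crct1 had the largest, 7.47 (6.78 to 8.02), with 99.9% of its set 2 UMIs in 3 cells. Ada, at −1.85 (−2.14 to −1.56), had 93.4% of its set 1 UMIs in 3 cells, and Acta1, at 1.35 (1.17 to 1.54), 63.6% of its set 2 UMIs. Among the top cells, Ube2c (−1.72, −2.02 to −1.42) and Birc5 (−1.30, −1.65 to −0.95) were lower in set 2, with 53.7% and 47.3% of the set 1 UMIs in 3 cells, and of the proliferation list 6 of 12 were lower (1.27% of all genes), with a median of −0.98 (−1.59 to −0.36). Over all members none of the 12 passed the fold (median −0.67, −0.87 to −0.51), and none in the lower range (median −0.06, −0.20 to 0.06). Ctrb1 (−1.73, −2.10 to −1.36) had 74.8% of its set 1 UMIs in 3 cells, and Itln1 (1.40, 1.10 to 1.70) 77.7% of its set 2 UMIs. Others were spread over more cells. In the top cells Fbp1, an enzyme of glucose synthesis, was lower in set 2 at −2.07 (−2.45 to −1.70), with 24.6% of its set 1 UMIs in 3 cells, Sult2b1 at −1.48 (−1.85 to −1.12), with 15.8%, and Hspa1a at −1.32 (−1.60 to −1.04), with 28.2%. Akr1c19 (0.93, 0.75 to 1.11) and Slc25a4 (0.92, 0.66 to 1.19) were among the 8 highest in set 2 but under 2-fold, and 3 cells held 7.52% and 12.5% of their set 2 UMIs. Over all members, Anpep was higher in set 2 at 1.14 (1.04 to 1.23), with 7.13% of its set 2 UMIs in 3 cells.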

How the data were processed

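Droplet-based 3′ RNA libraries were made from cells of 3 pooled organoid lines per treatment, per the labels. The authors deposited whole-number UMI counts per gene and barcode with no normalization; the submitters' processing notes name Cell Ranger 3.1.0, STAR 2.7.3a and bcl2fastq 2.20.0, and the genome build is not given in the sources used here. Both libraries' files were identical and were handled as 1 sample.

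Here, python 3.11.15 with numpy 2.4.6, scipy 1.17.1 and pandas 2.3.3 was used. Cells were filtered and chosen as described in the report. Counts were summed per group and scaled to CPM, with exact Poisson intervals; log2 ratios took a pseudocount of 1 CPM, which understates the ratio of low genes, and an exact conditional binomial interval. Genes with at least 10 UMIs in both groups together were used. Interval bounds of a list's median are medians of its genes' bounds. Shares have Clopper-Pearson intervals. Every interval is a 95% one for counting error alone. A total of 0 UMIs was taken to allow up to 3 UMIs. The calculation was checked on simulated counts. No doublet caller was run; an alternative left out the members of most UMIs. Cells are not replicates, so no test was run.

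Named genes were the rule genes and markers, examples from each list (highest by level, furthest by ratio), the 10 highest and 10 lowest ratios over the lower range among genes at 20 CPM or more, the 8 highest and 8 lowest between sets at 50 CPM or more, both with intervals apart, and the 10 of largest variance against its counting expectation. The members and all lists were chosen with earlier results of these data known. Genes outside this rule were chosen after their values were seen, and a few listed genes are not reported here. Alternatives changed the filters, limits, rule genes, pseudocount, scaling, depth and sets.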

Additional observations from a re-analysis of the deposited data

Results flagged for a closer look

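The rule left out 2 groups of barcodes that met other parts of it. Over the mitochondrial limit of 20%, 579 barcodes met the expression rule, 279 in set 1 and 300 in set 2, which is 5.92% of the 9781 barcodes over that limit. They had a median of 8555 UMIs, of which 48.1% were mitochondrial. On a CPM scale without mitochondrial genes, Guca2b was at 1091 in them and 659 in members, Cyp3a11 at 3222 and 1804, and Lct at 191 and 79.8. Fabp1 was at 10289 against 16233 CPM and S100g at 2846 against 3804 CPM, both lower than in members. The hormone cell genes Chga and Cck were at 21.2 and 158 CPM in them and at 7.59 and 48.3 CPM in members, while over all 9781 barcodes above the limit they were at 134 and 514 CPM.

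The limit on Chgb left out 39 kept cells with a 4-gene sum of 20 CP10K or more, 35 of them in set 1 and 4 in set 2. Their median depth was 1277 UMIs, their median sum 28.4 CP10K and their median Chgb 8.55 CP10K. Chga was at 87.0 CPM without mitochondrial genes in them and at 7.59 CPM in members. Summed over the 39 cells, several enterocyte genes were also at higher levels than in members. Fabp1 was at 26973 against 16233 CPM, Guca2b at 978 against 659, Cyp3a11 at 3022 against 1804, Lct at 109 against 79.8 and Alpi at 250 against 122 CPM. Krt20 was lower, at 54.4 against 98.1 CPM. These sums do not describe the typical cell: the median sum of 28.4 CP10K compares with 128 in members, and 3 of the 39 reached 160. In the 4 cells of set 2, Fabp1 was at 2406 CPM, Guca2b at 150, Cyp3a11 at 1805, and Lct and Alpi at 0. At the median depth of 1277 UMIs the limit turned on single molecules, with a median of 1 Chgb UMI. Of the 39 cells, 25 held 1 and 14 held more, and Chga summed to 8 UMIs over all of them. The part of free RNA and of doublets was not tested.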

How the results depend on the processing

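No paired analysis was possible because each treatment has 1 library and the barcode suffixes carry no replicate number. The share of members, 9.39% in set 1 and 14.1% in set 2, became 5.05% and 6.69% with a mitochondrial limit of 10%, 7.66% and 11.4% with 50%, 15.4% and 18.3% with a sum of 10 or more, 6.30% and 11.8% with 40 or more, and 3.17% and 9.17% without Fabp1. In set 1 it was 8.22% with Chgb under 1 CP10K and also 8.22% without Apoa4. It was higher in set 2 under each of these settings.

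Of the genes past the fold over the lower range (781 higher, 625 lower), 279 and 76 were left with the 10% limit, 341 and 118 with a pseudocount of 10 CPM, and 489 and 374 at 10 CPM or more. Lower genes numbered 174 with a sum of 10 or more, 1135 with 40 or more, 1702 without Fabp1, 946 with a pseudocount of 0.1 CPM, 286 in set 1 alone and 1057 in set 2 alone. Between the sets (53 higher, 117 lower), the counts were 15 and 14 with a pseudocount of 10 CPM, 20 and 35 at 10 CPM or more, and 83 and 182 as means over cells. Higher genes numbered 103 with the 10% limit, 34 with a sum of 40 or more, 32 at 160 and over, and 34 without the 10 members of most S100a6 and Crct1, the last 2 chosen after seeing the data.

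Expected shares of members with Guca2b and Cyp3a11 were 27.3% and 47.7% at 1000 UMIs and 61.7% and 75.3% unthinned; in the lower range they were 1.35% and 3.94%, and 14.2% and 35.3%. At 80 to 160 CP10K, taken per set after seeing the data, the fat genes were at 40.8% of the top level in set 1, the brush border enzymes at 27.9%, the microvillus genes at 45.7% in set 1 and 61.8% in set 2, and the retinoid genes at 29.9% in set 1.

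Over the lower range, 20 of 22 list medians with intervals off 0 kept their sign under every alternative, and so did 23 of 23 named genes. The revival-like median turned to −0.0050 with a sum of 10, −0.046 with 40, −0.089 without Fabp1 and −0.22 in set 2 alone, and mucosal defence to −0.086 with 40 and −0.042 in set 1 alone. Between the sets, 2 of 7 list medians and 15 of 21 named genes kept their sign. Without Fabp1 in the rule, medians turned to −0.081 for the rule genes, −0.20 for fat, −0.12 for microvillus, −0.14 for transport and 0.075 for proliferation, with Apoa4 at −0.26, Cyp3a11 at −0.23, Fabp1 at −0.21 and Guca2b at −0.63. Fabp1 and Guca2b were at −0.28 and −0.36 with the 10% limit and −0.15 and −0.27 at 160 and over, where fat was at −0.017, Acta1 at −0.59 and Ada at 2.19. Acta1 was at −0.21 with a sum of 40. The cause was not tested.

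Depth per cell limits shares of cells with a UMI, and at 20 to 40 CP10K 3 UMIs over the band equal 1.15 CPM, so that Lct and Slc15a1 were near or under the limit of detection there.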
